A study of Mus spretus with 19 samples.

Results

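The heat shock proteins and their DnaJ cochaperones were followed in the livers of wild male Algerian mice (Mus spretus) caught at 5 sites. Members were taken by name: 65 genes of the array carry an Hsp or Dnaj symbol, and 57 of them, out of 16358 genes and transcripts tested, had a usable probe, one that stood well above background on 3 or more arrays of some site. The 8 left out for want of signal were Dnajb3, Dnajb7, Dnajb8, Dnajb13, Dnajc5b, Dnajc5g, Dnajc6 and Hspa12a. The sites labelled polluted were the phosphogypsum stacks (PS) and 3 places on the Domingo Rubio stream, DR1 on its lower, DR4 on its medium and DR6 on its upper course. The unpolluted one was the Santa Olalla lagoon (SOL). No treatment, genotype or age is given in the labels used here. Liver RNA of 9 mice was pooled at each site and run as technical repeats on 4 arrays, with 3 arrays for DR6, 19 in all. Each site had a slide of its own, so site and slide cannot be told apart. Except where pools are the units, every p-value below takes its error from repeated labelling and hybridization of a pool. Such a p-value holds no spread between mice. The fit with pools as units takes its error from the spread between the polluted pools, which also holds their slides. The arrays carry probes designed for Mus musculus.

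Heat shock proteins are chaperones: they hold, fold or unfold other proteins, and some are made in bulk when proteins are damaged. HSP70 proteins bind unfolded stretches in a cycle driven by ATP, DnaJ proteins (also called HSP40) bring them clients and start the cycle, and HSP90 takes over partly folded clients such as receptors and kinases. Small heat shock proteins hold unfolded proteins without ATP. The transcription factor Hsf1 switches on the inducible members of the cytosol, while the members of the endoplasmic reticulum (ER) answer to the unfolded protein response and those of mitochondria to signals of their own.

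Signals are given in multiples of the 75th percentile of each array, and changes as log2 fold changes with the standard error of the fit. A gene was called when limma's adjusted p was under 0.05 and the change at least 2-fold. Across genes, the correlation was 0.981 to 0.997 between arrays of the same site and 0.954 to 0.984 otherwise. On 3 arrays more genes lay over 2-fold away from the other arrays of their site than elsewhere: 724 on SOL replicate 1, 441 on DR1 replicate 2 and 354 on DR1 replicate 4, against 26 to 112 on the others. Calls of members that were lost without them are given with and without them. Most other values hold all arrays.

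Most members lay close to their SOL level at every polluted site. At PS 1 of 57 members was called, 1.75% against 4.43% of all genes (2.24% higher and 2.18% lower), and it was Hspb1, which rose. At DR1 2 members were called, 3.51% against 6.1% of all genes (3.54% higher and 2.56% lower): Hspa1a and Hspa1b, both lower. At DR4 5 members rose (Hspbap1, Dnajc18, Hspa2, Dnajb5 and Dnajb9) and Hspa1b fell, which made 10.5% of members, the same share as the 10.5% of all genes called there (5.43% higher and 5.1% lower). At DR6 4 members rose, Hspbap1, Hspb1, Dnajb5 and Hspb3, and none fell, 7.02% against 6.95% of all genes (4.66% higher and 2.28% lower). No member was called in 1 direction at 3 or more of the 4 sites, against 1.77% of all genes called higher and 0.795% called lower at 3 or more. By adjusted p alone, with no limit on size, 31.6% of members passed at PS against 32.8% of all genes, 50.9% against 47.7% at DR1, 63.2% against 54.9% at DR4 and 43.9% against 43.9% at DR6. The median log2 change of the members was 0 at PS, 0.09 at DR1, −0.09 at DR4 and 0.07 at DR6, beside −0.01, 0.01, −0.05 and 0 for all genes. The 4 comparisons share the SOL arrays, so their values are not independent of each other.

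**Figure D1:**
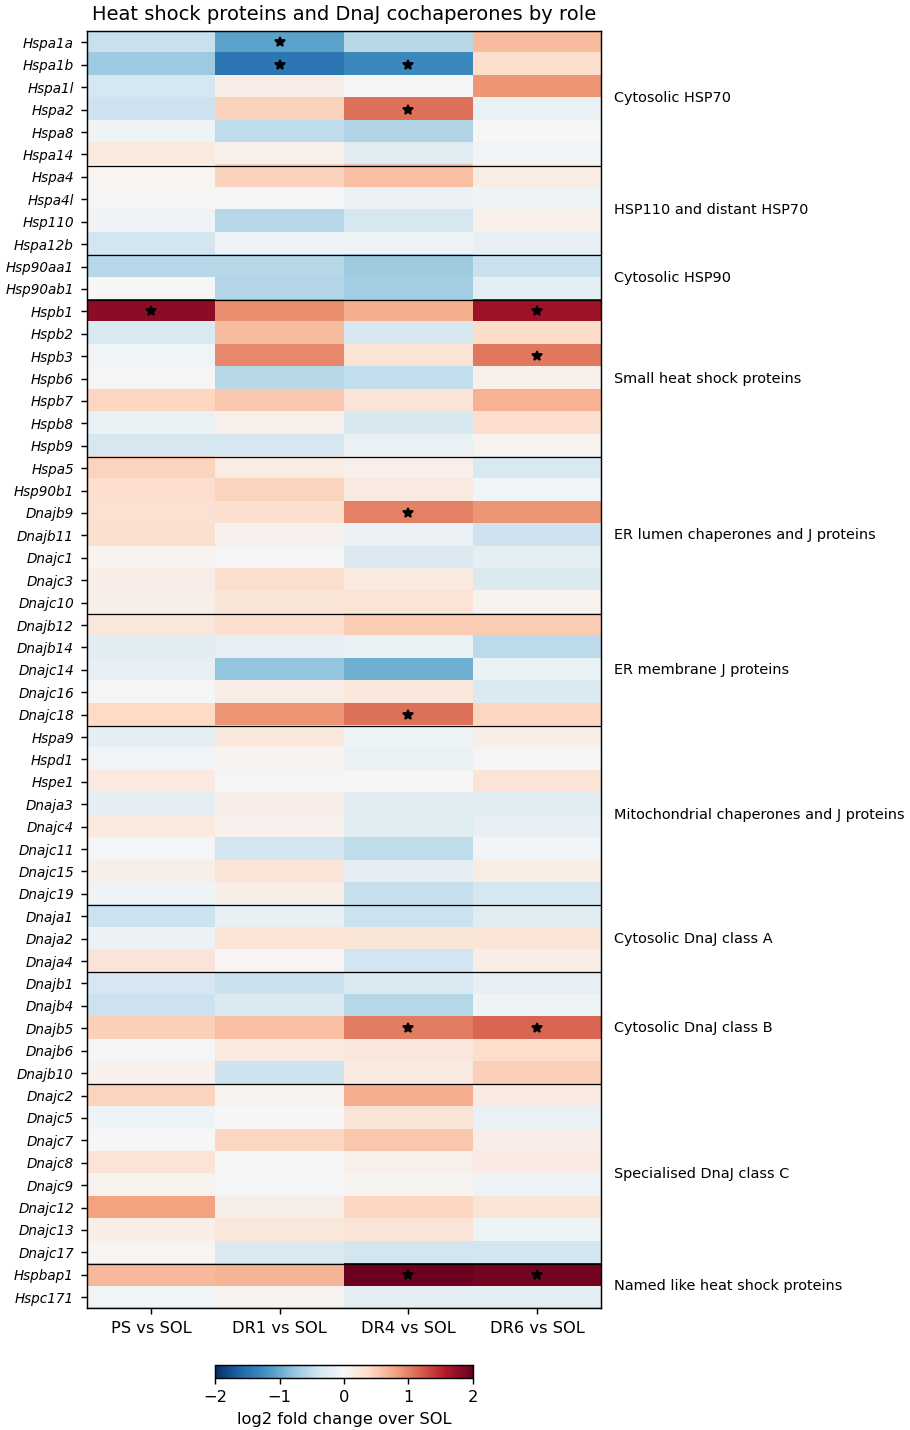
Log2 fold change of each of the 57 members at the polluted sites over SOL (colour, red higher and blue lower, clipped at 2 and −2), in rows by role and columns by site; a star marks an adjusted p under 0.05 with at least a 2-fold change. The stars number 1 at PS, 2 at DR1, 6 at DR4 and 4 at DR6, and lie on Hspa1a, Hspa1b, Hspa2, Hspb1, Hspb3, Dnajb5, Dnajb9, Dnajc18 and Hspbap1.

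Hspa1a and Hspa1b, neighbouring genes that encode the stress-inducible cytosolic HSP70, were lowest at DR1 and highest at DR6. The signal of Hspa1a was 0.558, 0.58, 0.606 and 0.599 on the PS arrays, 0.428, 0.345, 0.374 and 0.372 on the DR1 arrays, 0.533, 0.561, 0.565 and 0.493 on the DR4 arrays and 1.27, 1.18 and 1.25 on the DR6 arrays, against 0.824, 0.835, 0.77 and 0.749 on the SOL arrays. Every PS, DR1 and DR4 array lay below every SOL array, and every DR6 array above. Hspa1b had signals of 0.271, 0.279, 0.272 and 0.289 at PS, 0.179, 0.157, 0.148 and 0.188 at DR1, 0.177, 0.213, 0.198 and 0.164 at DR4 and 0.618, 0.563 and 0.565 at DR6, against 0.454, 0.518, 0.422 and 0.436 at SOL. The order of the site means was the same as for Hspa1a; the neighbours in that order that overlapped were PS and DR4 for Hspa1a and DR1 and DR4 for Hspa1b.

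Relative to SOL, Hspa1b fell by 1.45 ± 0.091 at DR1 (adjusted p = 2.14e-09) and by 1.29 ± 0.091 at DR4 (adjusted p = 3.24e-09) on the log2 scale. Hspa1a fell by 1.07 ± 0.067 at DR1 (adjusted p = 2.19e-09) and stood at −0.56 at DR4, under the 2-fold limit. At PS the values were −0.44 for Hspa1a and −0.72 for Hspa1b, and at DR6 0.64 and 0.35, all under the limit. Between the stream sites the gap was wider: in DR1 over DR6 Hspa1a was at −1.70 ± 0.072 and Hspa1b at −1.80 ± 0.098, a 3.26-fold and a 3.47-fold lower signal. Under a normexp background correction Hspa1a was at −0.60 and Hspa1b at −0.76 at DR1 and Hspa1b at −0.37 at DR4, and none of these was called, while Hspa1a in DR1 over DR6 kept its call under all 30 alternatives tried. Without SOL replicate 1 and DR1 replicates 2 and 4 together, Hspa1a stood at −0.97 at DR1, just under the limit. The summed signal of 8 exocrine pancreas markers was also highest at DR6 and next at SOL: 215 to 217 at PS, 513 to 531 at DR1, 118 to 122 at DR4 and 1130 to 1160 at DR6, against 921 to 1000 at SOL. These sums leave out 1 DR1 and 1 DR4 array on which a marker had no value. Its part in the values of Hspa1a and Hspa1b was not tested. Here, as for all members, fewer cells of a type and less RNA per cell cannot be told apart.

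Letters from the probes of the pair are given here, and the 2 genes were not aligned with each other. The newer design file of the arrays names 2 kept probes Hspa1a and 2 Hspa1b, whereas the older file, used for the DR1 slide, names all of them Hspa1a. The 2 Hspa1a probes overlap by 30 bases on chromosome 17, minus strand, mm8 build (chr17:34577907-34577936), and this shared stretch is shown in capitals. The brighter Hspa1b probe (chr17:34565311-34565370, minus strand) is set beside the dimmer probe of Hspa2, a related HSP70 (chr12:77325056-77325115, plus strand): capitals mark the 31 identical bases in their ungapped overlap of 40, or 77.5%. The last line is the second Hspa1b probe (chr17:34566719-34566778, minus strand), in which nothing is marked. Exon and UTR annotations were not used here. All sequences are written 5′ to 3′ from the deposited probe column.
Hspa1a, shared stretch: AGGGAAACTAAACTGTCTTTCAGTTACTTT
Hspa1b, brighter probe: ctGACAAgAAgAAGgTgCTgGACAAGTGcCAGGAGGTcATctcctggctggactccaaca
Hspa2, dimmer probe: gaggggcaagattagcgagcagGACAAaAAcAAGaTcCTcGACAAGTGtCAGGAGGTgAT
Hspa1b, dimmer probe: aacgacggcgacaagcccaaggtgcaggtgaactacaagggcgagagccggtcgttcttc

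The second Hspa1a probe had log2 changes of −0.23 at PS, −1.0 at DR1, −0.49 at DR4 and 0.85 at DR6 over SOL, each with the sign of the probe used. The second Hspa1b probe stood at 0.04 at PS, −1.37 at DR1, −0.60 at DR4 and 0.76 at DR6, but it was well above background on none of the DR1 and SOL arrays. Hspa1a and Hspa1b are known as near-identical copies in their coding part, and whether a probe of one also takes up the transcript of the other was not tested. No probe used for a member shared a stretch of 25 bases with a probe of another gene name.

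Hspa8, the constitutive cytosolic HSP70, and the exchange factor Hsp110 lay lower at DR1 and DR4 than at SOL, by less than 2-fold. Hspa8 had signals of 170, 174, 170 and 189 at PS, 132, 118, 124 and 155 at DR1, 123, 123, 122 and 126 at DR4 and 170, 201 and 195 at DR6, against 225, 178, 173 and 176 at SOL. All DR1 and DR4 arrays were below all SOL arrays, while those of PS and DR6 overlapped with SOL. The log2 change was −0.51 ± 0.093 at DR1 (adjusted p = 0.000263) and −0.60 ± 0.093 at DR4 (adjusted p = 3.66e-05), beside −0.09 at PS and 0.01 at DR6. These changes include SOL replicate 1, at 225 the highest SOL array. A second, dimmer Hspa8 probe gave −0.88 at DR1 and −0.58 at DR4. Hsp110 (the file's name for Hsph1, the exchange factor that lets HSP70 release its client) was at −0.57 ± 0.081 at DR1 and −0.35 ± 0.081 at DR4, −0.07 at PS and 0.10 at DR6.

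Cytosolic HSP90 followed a related order. Hsp90ab1, the constitutive form, had signals of 77, 77.1, 74.6 and 71.8 at PS, 48.3, 61.3, 46.2 and 47.9 at DR1, 52.2, 46.3, 45.1 and 43.1 at DR4 and 76.9, 64 and 58.7 at DR6, against 79.3, 82.7, 74.9 and 67.4 at SOL. It was separate from SOL at DR1 (−0.59 ± 0.10) and DR4 (−0.70 ± 0.10) and overlapped with it at PS and DR6. A second Hsp90ab1 probe gave −0.81 and −0.82 at these sites. Hsp90aa1, the inducible form, was below SOL on every array of every polluted site: 38.1, 38.9, 39.9 and 38 at PS, 38.5, 37.6, 41.9 and 38.2 at DR1, 35.4, 36.2, 35.5 and 33.1 at DR4 and 42.2, 41.8 and 41.9 at DR6, against 63, 59.2, 56.7 and 51 at SOL. Its log2 changes were −0.57, −0.55, −0.71 and −0.45, each with a standard error of at most 0.065 and none past 2-fold. Under normexp both HSP90 genes passed the limit at DR4, each at −1.03.

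**Figure D2:**
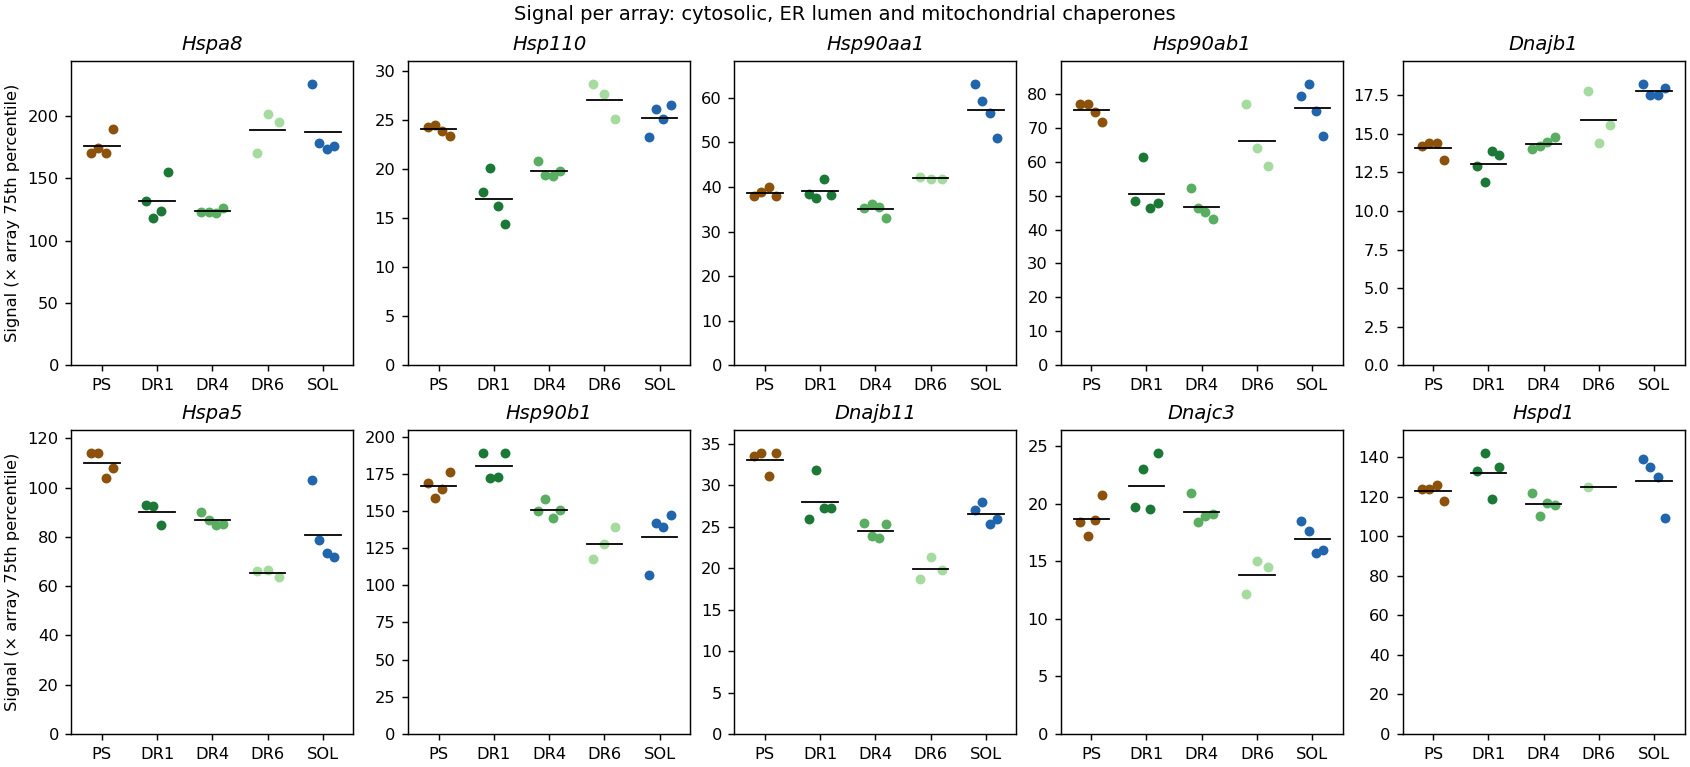
Signal in multiples of the array's 75th percentile (vertical axis, linear from 0) of 10 members with fixed roles on each array (points) of the 5 sites (horizontal axis), with the site mean as a line. The cytosolic members Hspa8 and Hsp90ab1 are low at DR1 and DR4, the ER members Hspa5 and Dnajb11 are high at PS and low at DR6, and Hspd1 of mitochondria spans 109 to 142; Hspd1 has 1 point at DR6, where 2 spots were set missing.

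Hspa2, an HSP70 best known from the testis, rose at DR4. Its signal was 0.0877, 0.0805, 0.0808 and 0.0871 at PS, 0.163, 0.158, 0.146 and 0.151 at DR1, 0.292, 0.211, 0.234 and 0.232 at DR4 and 0.143, 0.0956 and 0.079 at DR6, against 0.0919, 0.114, 0.113 and 0.134 at SOL. The DR4 and DR1 arrays lay above all SOL arrays and the PS arrays below them. The log2 change over SOL was 1.10 ± 0.15 at DR4 (adjusted p = 8e-06), 0.46 at DR1, −0.42 at PS and −0.13 at DR6, so at DR4 Hspa2 and Hspa1b moved in opposite directions. The dimmer Hspa2 probe shown above gave 1.11 at DR4, and under normexp the value of the gene was 0.47, not called. Hspa1l, a close relative of Hspa1a, was well above background on 0 of 4 PS arrays and 1 of 4 SOL arrays. At DR6 it stood at 0.88 over SOL, and it was called there only when SOL replicate 4 (1.05) or DR6 replicate 2 (1.03) was left out.

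Hspa4, a relative of Hsp110, had log2 changes of 0.04 at PS, 0.46 at DR1, 0.60 at DR4 and 0.15 at DR6 by its brightest probe. Its 3 kept probes disagreed: a second probe gave −0.32, −1.09, −1.59 and −0.96 and the remaining probe −0.19, −0.08, 0.09 and 0.12, so no direction is given for it. Over the 30 members with several kept probes, the probes of 12 had both signs at DR4, and Hspa4, Dnaja1, Dnajb5, Dnajb9 and Hspa1b had probes on both sides of 2-fold there. Hspa4l varied least of all members, by 0.15 on the log2 scale between its highest and lowest site.

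Among the small heat shock proteins Hspb1 (HSP25), an actin-binding stress protein, rose at PS and DR6 and stood above SOL at DR1 and DR4 too. Its signal was 7.12, 7.11, 6.55 and 6.66 at PS, 3.46, 4.57, 3.47 and 3.73 at DR1, 3.4, 3.28, 3.16 and 3.32 at DR4 and 6.79, 6.29 and 6.11 at DR6, against 2.03, 2.16, 1.9 and 1.86 at SOL. No array of a polluted site reached down to the SOL range, and the PS and DR6 arrays were all above those of DR1 and DR4. The log2 change over SOL was 1.79 ± 0.079 at PS (adjusted p = 2.7e-11) and 1.69 ± 0.086 at DR6 (adjusted p = 1.45e-10), a 3.45-fold and a 3.22-fold signal, beside 0.93 at DR1 and 0.73 at DR4. Both calls held under all 30 alternatives, with values from 1.60 to 1.87 at PS and from 1.5 to 1.73 at DR6. Hspb1 has 1 kept probe, printed here because the calls of Hspb1 rest on it alone; its 60 bases cover 188 bases of chromosome 5 (chr5:136173684-136173871, plus strand, mm8), so it crosses a gap in the genome, and nothing is marked.
Hspb1: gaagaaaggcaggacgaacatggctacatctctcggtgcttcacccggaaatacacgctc

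Of the other 6 small heat shock proteins Hspb3 alone was called. Hspb8, which works with the cochaperone Bag3, was at −0.14 at PS, 0.10 at DR1, −0.32 at DR4 and 0.34 at DR6. Hspb3, best known from muscle, had 0.0647, 0.0512, 0.0744 and 0.062 at PS, 0.106, 0.114, 0.149 and 0.145 at DR1, 0.0734, 0.0821, 0.0726 and 0.0881 at DR4 and 0.102, 0.158 and 0.155 at DR6, against 0.0847, 0.063, 0.0494 and 0.0691 at SOL, where 1 of 4 arrays was well above background. It was higher at DR6 by 1.06 ± 0.19 (adjusted p = 0.000258), a call lost without SOL replicate 3 (0.92), DR6 replicate 2 (0.95) or DR6 replicate 3 (0.96), under median and quantile scaling (0.97 each) and under normexp (0.26). It stood at 0.96 at DR1, a call gained without SOL replicate 1 (1.09), DR1 replicate 1 (1.05) or DR1 replicate 2 (1.01). Hspb2, another small heat shock protein of muscle, was at −0.31 at PS, 0.63 at DR1, −0.32 at DR4 and 0.37 at DR6. Hspb7, best known from the heart, was at 0.43, 0.54, 0.25 and 0.69, and Hspb6 and Hspb9 ranged from −0.56 to 0.10. The summed signal of 10 skeletal and heart muscle markers was also highest at these sites: 68.3 to 69.9 at PS, 108 to 112 on the 2 DR1 arrays with a value for every marker, 55.4 to 59.5 at DR4 and 104 to 109 at DR6, against 58.7 to 63.5 at SOL. Of the 10 markers 4 were called higher at DR1 and 1 at each of PS, DR4 and DR6. At PS 1 was called lower, Actc1, which stood at −0.89 and was not called without SOL replicate 1. The part of these markers in the values of Hspb2, Hspb3 and Hspb7 was not tested.

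**Figure D3:**
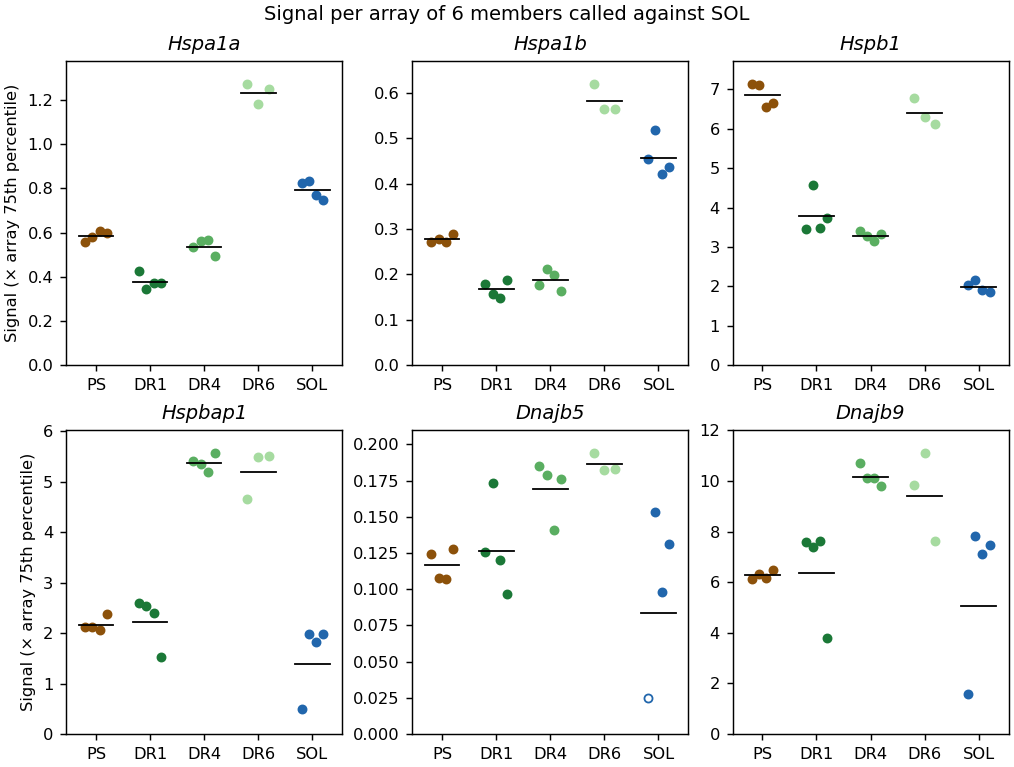
Signal in multiples of the array's 75th percentile (vertical axis, linear from 0) of 6 called members on each array (points, open where not well above background) of the 5 sites (horizontal axis); lines are site means taken on the log2 scale. Hspa1a, Hspa1b and Hspb1 form tight groups by site, whereas SOL replicate 1 lies far below the other SOL arrays for Hspbap1 (0.499), Dnajb5 (0.0247) and Dnajb9 (1.59).

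Of the cytosolic DnaJ proteins, Dnaja1 and Dnajb1, the main partners of Hspa8 and of the inducible HSP70, were not called at any site. Dnajb1 had 14.2, 14.4, 14.4 and 13.3 at PS, 12.9, 11.9, 13.9 and 13.6 at DR1, 14, 14.2, 14.5 and 14.8 at DR4 and 17.8, 14.4 and 15.6 at DR6, against 18.2, 17.5, 17.5 and 18 at SOL. All PS, DR1 and DR4 arrays lay below all SOL arrays, with log2 changes of −0.34, −0.44 and −0.31, and DR6 overlapped with SOL at −0.16. A dimmer Dnajb1 probe gave 0.06 at PS, −0.32 at DR1, 0.26 at DR4 and 0.48 at DR6, so DR1 was the only site where both probes of Dnajb1 had the same sign. Dnaja1 stood at −0.43 at PS, −0.15 at DR1, −0.43 at DR4 and −0.24 at DR6, and its other probes ran down to −1.03 at DR4.

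Dnajb5, a cytosolic DnaJ protein of the Dnajb1 subfamily, was called higher at DR4 (1.02 ± 0.39, adjusted p = 0.0352) and DR6 (1.16 ± 0.42, adjusted p = 0.0347). Its signal was 0.124, 0.108, 0.107 and 0.128 at PS, 0.126, 0.173, 0.12 and 0.0969 at DR1, 0.185, 0.179, 0.141 and 0.176 at DR4 and 0.194, 0.182 and 0.183 at DR6, against 0.0247, 0.153, 0.098 and 0.131 at SOL. SOL replicate 1, not well above background, made most of the difference: without it the changes were 0.43 at DR4 and 0.57 at DR6, and neither was called. The other 2 probes of Dnajb5 gave −0.04 and 0.60 at DR4 and 0.12 and 0.80 at DR6. The calls of Dnajb5 were also lost without DR4 replicate 1 (0.98), 2 (0.99) or 4 (1.00), and without DR6 replicate 1 (1.13), 2 (1.17) or 3 (1.17). The remaining DnaJ members of the cytosol, Dnaja2, Dnaja4, Dnajb4, Dnajb6 and Dnajb10, ranged from −0.57 to 0.47 over the 4 sites.

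In the lumen of the ER, Hspa5 (BiP), its DnaJ partners Dnajb11 and Dnajc3 and the ER HSP90, Hsp90b1 (GRP94), were lowest at DR6 by site mean, and highest at PS or DR1. Hspa5 had 114, 114, 104 and 108 at PS, 92.8, 92.5 and 84.8 on the 3 DR1 arrays with a value, 90, 86.7, 85 and 85.4 at DR4 and 66.1, 66.4 and 63.6 at DR6, against 103, 78.9, 73.3 and 71.8 at SOL. The PS arrays lay above, and the DR6 arrays below, every other array of Hspa5. Its log2 change over SOL was 0.44 ± 0.089 at PS (adjusted p = 0.00119), 0.15 at DR1, 0.10 at DR4 and −0.31 at DR6, and 0.75 ± 0.096 in PS over DR6. The changes of Hspa5 over SOL include SOL replicate 1, at 103 the highest SOL array. Dnajb11 had 33.6, 33.9, 31.1 and 33.9 at PS, 26, 31.8, 27.3 and 27.3 at DR1, 25.4, 23.9, 23.6 and 25.3 at DR4 and 18.7, 21.4 and 19.8 at DR6, against 27, 28, 25.3 and 26 at SOL, which gave 0.32 ± 0.065 at PS and −0.41 ± 0.070 at DR6. Hsp90b1 stood at 0.33 at PS, 0.44 at DR1, 0.18 at DR4 and −0.05 at DR6, and its second probe at 0.38, −0.16, −0.25 and −0.30. Dnajc3, which also restrains a kinase that slows translation, was at 0.14, 0.35, 0.19 and −0.29 at these sites, and its 4 kept probes were all negative at DR6, from −0.29 to −0.57.

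The median over the 7 ER lumen members was 0.31 at PS, 0.24 at DR1, 0.18 at DR4 and −0.18 at DR6, none of the shifts as large as 2-fold. Under normexp the DR4 median of these members turned to −0.12, while the signs at PS, DR1 and DR6 were the same under median, quantile and normexp scaling. Markers of the exocrine pancreas, a tissue rich in ER chaperones, differed widely between the pools, as given above, with 8 of 10 measured. All 8 were called lower at PS and at DR4, 3 at DR1 and none at DR6, and Amy2 and Try4 were not among the genes measured. These markers were highest at DR6, where Hspa5, Hsp90b1, Dnajb11 and Dnajc3 were lowest, and their part in the values of the ER members was not tested.

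Dnajc1 and Dnajc10, also of the ER lumen, differed from this order: Dnajc1 was lowest at DR4 and Dnajc10 at SOL. So did Dnajb9, an ER DnaJ protein that helps to clear misfolded proteins. Its signal was 6.13, 6.32, 6.16 and 6.47 at PS, 7.6, 7.37, 7.64 and 3.79 at DR1, 10.7, 10.1, 10.1 and 9.8 at DR4 and 9.84, 11.1 and 7.63 at DR6, against 1.59, 7.84, 7.13 and 7.46 at SOL. It was called higher at DR4 at 1.00 ± 0.38 (adjusted p = 0.0348), and without SOL replicate 1 it stood at 0.44 and was not called. The DR4 call was also lost without DR4 replicate 1 (0.98), 2 (1.00), 3 (1.01) or 4 (1.02). Its dimmer probes gave 0.57 ± 0.073 and 0.85 ± 0.060 at DR4 and 0.47 ± 0.078 and 0.91 ± 0.065 at DR6, each with an adjusted p of at most 0.000143, and −0.44 and −0.24 at PS.

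Of the DnaJ proteins of the ER membrane, Dnajc18 rose at DR4. It had 2.6, 2.56, 2.32 and 2.27 at PS, 3.17, 3.82, 3.08 and 3.56 at DR1, 4.12, 4, 3.97 and 3.82 at DR4 and 2.56, 2.52 and 2.38 at DR6, against 1.94, 1.88, 1.71 and 1.88 at SOL. Every array of every polluted site exceeded the SOL arrays for Dnajc18, with log2 changes of 0.40 at PS, 0.88 at DR1, 1.10 ± 0.071 at DR4 (adjusted p = 9.61e-10) and 0.43 at DR6. A second probe gave 1.15 at DR4, and under normexp the value was 0.60, not called. Dnajc14 ran the other way at the same sites, at −0.79 ± 0.086 at DR1 and −0.97 ± 0.086 at DR4, beside −0.16 at PS and −0.14 at DR6, and fell short of 2-fold. The other 3, Dnajb12, Dnajb14 and Dnajc16, ranged from −0.52 to 0.51.

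None of the 8 mitochondrial members was called. Hspd1 (HSP60), the chamber in which imported proteins fold, had 124, 124, 126 and 118 at PS, 133, 142, 119 and 135 at DR1, 122, 110, 117 and 116 at DR4 and 125 on the DR6 array with a value, against 139, 135, 130 and 109 at SOL, so PS, DR1, DR4 and DR6 all overlapped with SOL. Hspe1 (HSP10), the lid of that chamber, was at 0.19 at PS, −0.02 at DR1, −0.01 at DR4 and 0.27 at DR6. Hspa9, the HSP70 that pulls proteins into the matrix, was at −0.19, 0.21, −0.08 and 0.11. All 8, with Dnaja3, Dnajc4, Dnajc11, Dnajc15 and Dnajc19, lay between −0.51 and 0.27 at the 4 sites, and their median was −0.05 at PS, 0.10 at DR1, −0.21 at DR4 and −0.04 at DR6.

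The 8 measured class C DnaJ proteins with tasks of their own, such as Dnajc5 of secretory vesicles and Dnajc8 of the spliceosome, gave no calls. The widest value was that of Dnajc12, a cochaperone of the aromatic amino acid hydroxylases such as phenylalanine hydroxylase of the liver: its signal was 13.4, 13.5, 13 and 12.9 at PS, 7.3, 9.63, 8.36 and 7.53 at DR1, 10.8, 10, 10.1 and 9.66 at DR4 and 8.99, 8.86 and 9.05 at DR6, against 7.57, 7.67, 7.67 and 7.18 at SOL. The PS arrays were above all others, at 0.81 ± 0.070 over SOL (adjusted p = 1.38e-07), and the DR1 arrays overlapped with SOL. Dnajc2, a DnaJ protein of the ribosome, was at 0.72 at DR4 and 0.44 at PS, and Dnajc9 varied by 0.17 over the 5 sites.

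Hspbap1, which carries the name of a protein that binds Hspb1 and is no chaperone itself, was called higher at DR4 and DR6. Its signal was 2.12, 2.12, 2.06 and 2.38 at PS, 2.6, 2.53, 2.39 and 1.52 at DR1, 5.41, 5.35, 5.2 and 5.57 at DR4 and 4.66, 5.49 and 5.51 at DR6, against 0.499, 1.99, 1.83 and 1.98 at SOL. The DR4 and DR6 arrays lay above all others, and SOL replicate 1 lay far below the other SOL arrays. The log2 change over SOL was 1.96 ± 0.32 at DR4 (adjusted p = 6.71e-05) and 1.92 ± 0.35 at DR6 (adjusted p = 0.000308), and 1.48 and 1.43 without SOL replicate 1, still called. At PS and DR1 it was 0.65 and 0.68, and 0.16 and 0.19 without that array. The high sites of Hspbap1 (DR4 and DR6) and of Hspb1 (PS and DR6) were thus not the same pair. Hspc171, a gene with a related symbol, ranged from −0.20 to 0.06.

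Setting the polluted sites against each other asked whether the stream sites and the stacks differ in these genes. These differences hold no SOL array, while their errors come from the fit over all 19 arrays, SOL included. In DR1 over DR6, Hspa1b, Hspa1a and Hspbap1 were lower, 5.26% of members against 7.5% of all genes (3.26% higher and 4.24% lower). In DR4 over DR6, Hspa2 was higher (1.23 ± 0.16) and Hspa1b (−1.64 ± 0.098) and Hspa1a (−1.20 ± 0.072) lower, again 5.26%, against 6.16% of all genes (2.38% higher and 3.77% lower). In DR1 over DR4 only Hspbap1 was called (−1.28 ± 0.32), 1.75% against 5.15% of all genes (3.04% higher and 2.1% lower). In PS over DR1 only Hspb3 was called (−1.02 ± 0.17), 1.75% against 6.37% of all genes (2.65% higher and 3.72% lower), and that call was lost without PS replicate 2 (−0.93), DR1 replicate 3 (−0.95) or DR1 replicate 4 (−0.96).

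In PS over DR4, Hspb1 was higher (1.06 ± 0.079) and Hspa2 (−1.52 ± 0.15) and Hspbap1 (−1.31 ± 0.32) lower, 5.26% of members against 8.96% of all genes (4.33% higher and 4.63% lower). In PS over DR6, 5 members were lower, 8.77% against 7.32% of all genes (2.52% higher and 4.79% lower): Hspbap1 (−1.27 ± 0.35), Hspb3 (−1.12 ± 0.19), Hspa1a (−1.08 ± 0.072), Hspa1b (−1.07 ± 0.098) and Hspa1l. Hspa1l was not well above background on any PS array, so by the processing used here it was at least 2.35-fold lower there (adjusted p = 0.00174). Under normexp it stood at −0.12 and was not called. Under normexp Hspa1a stood at −0.80 and Hspa1b at −0.48 in PS over DR6 and at −0.82 and −0.54 in DR4 over DR6, under median scaling they stood at −0.91 and −0.90 in PS over DR6, and with the mean of all kept probes Hspa1b stood at −0.89 there, none of them called. Hspa1b (−0.93) and Hspbap1 (−1.07) in DR1 over DR6 and Hspa2 (0.44) in DR4 over DR6 also lost their calls under normexp. Hspbap1 lost its calls there in DR1 over DR4 (−0.89), PS over DR4 (−0.94) and PS over DR6 (−1.13). The same held for Hspa2 in PS over DR4 (−0.49) and Hspb3 in PS over DR6 (−0.21). That call of Hspb3 was also lost under median (−0.95) and quantile scaling (−0.94). DR4 was the lowest site for 20 of the 57 members, 35.1% against 25.8% of all genes, and DR6 the highest for 14, 24.6% against 22%.

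With the 5 pools as units and the 4 polluted pools set against SOL, limma called 0 of 57 members and 0% of all genes. At an unadjusted p under 0.05, 2 members passed, Hspb1 and Dnajb5, which is 3.51% of members against 4.07% of all genes. SOL is 1 pool in this fit and is assumed to vary like the others.

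The other genes of the same pathways were read from lists of partners. Of the 4 HSF regulators, Hsf2, a heat shock factor, was lower at PS (−1.19 ± 0.11), and Hsf1, the main heat shock factor, stood at 0.29 at PS, 0.15 at DR1, 0.15 at DR4 and 0.81 at DR6. Of 15 measured HSP90 cochaperones 1 was called at DR1, Stip1, which links HSP70 to HSP90 (−1.02 ± 0.12), and 1 at DR4, Fkbp4, a partner of steroid receptors (−1.27 ± 0.090), both lower. Without SOL replicate 1 Stip1 stood at −0.98 at DR1 and was not called. The cochaperones had a median of −0.10 at PS, −0.37 at DR1, −0.29 at DR4 and −0.27 at DR6. Of 12 HSP70 exchange factors and cofactors, Bag5 was called higher at DR4 (1.12 ± 0.44) and DR6 (1.26 ± 0.48), at 0.46 and 0.60 and not called without SOL replicate 1. Bag3, an inducible partner of Hspb8, was at −0.41, −0.30, −0.76 and −0.28 at PS, DR1, DR4 and DR6.

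None of the 13 subunits of the TRiC chaperonin and of prefoldin was called at any site. Of 14 measured ER folding partners, Sdf2l1, which works with BiP and Dnajb11, was higher at PS (2.03 ± 0.42) and DR1 (1.53 ± 0.42); without SOL replicate 1 it was at 1.45 at PS and at 0.95, not called, at DR1. P4hb, a protein disulfide isomerase, was lower at DR4 (−1.12 ± 0.097). The ER partners had medians of 0.33 at PS, 0.19 at DR1, −0.07 at DR4 and −0.34 at DR6, and Hyou1, the exchange factor of BiP, was at 0.34, 0.40, 0.26 and −0.75. Of 8 mitochondrial folding genes and proteases, Clpx was lower at DR6 (−1.30 ± 0.15). Among 11 other heat-inducible genes, some of them on the lists above, the calls were again Stip1 at DR1 and Fkbp4 at DR4, and Serpinh1, the collagen chaperone, was at −0.03 at DR1, −0.66 at DR4 and −0.91 at DR6 and just under the limit at PS, which it passed without SOL replicate 1.

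Cirbp, an RNA-binding protein that is made at lower temperature, was called higher at each polluted site: 1.08 ± 0.11 at PS, 1.41 ± 0.11 at DR1, 2.33 ± 0.11 at DR4 and 1.48 ± 0.12 at DR6. Rbm3, its relative, was at −0.17, 0.01, 0.71 and 0.56, not called. Of 12 immediate early genes, which respond within minutes to stimulation and handling, none was called at PS, 6 at DR1, 7 at DR4 and 8 at DR6, all higher. Of 11 measured clock genes, 2 were higher and 1 lower at PS, 1 and 1 at DR1, 1 and 3 at DR4, and 3 and 0 at DR6. The higher calls of Dbp and Nr1d1 at PS and of Arntl at DR1 were lost without SOL replicate 1. Their part in the values of Hspa1a, Hspa1b and the other members was not tested.

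Of the hepatocyte markers, Apoa1, Ttr, Tat, Cps1 and Apob were measured at every site and Alb and Serpina1a were not. Their summed signal was 515 to 544 at PS, 561 to 642 at DR1, 601 to 637 at DR4 and 716 to 796 at DR6, against 534 to 614 at SOL. Apoa1 was saturated on 2 DR1 arrays, whose sums are lower bounds. The exocrine pancreas sums were above the hepatocyte sums at DR6 (1130 to 1160) and SOL (921 to 1000), and below them at PS, DR1 and DR4. The lists hold different genes, so their sums give no shares of cells. Apob was called lower at PS over SOL (−1.98), and the mean signal of Ttr ran from 0.837 at DR4 to 1.6 at DR1. Markers of other cells also differed between pools. The 3 erythroid markers measured summed to 756 to 860 at PS, 379 to 416 at DR1, 306 to 308 at DR4 and 359 to 375 at DR6, against 754 to 780 at SOL. Hbb-b1 was saturated on 3 of the 4 PS arrays and on 1 DR1 array, so the erythroid sums of these arrays are lower bounds. The 5 macrophage markers summed to 67.3 to 74.1 at PS, 60.7 to 69.7 at DR1, 28.8 to 34.1 at DR4 and 28 to 30.6 at DR6, against 91 to 108 at SOL. Lymphocyte markers summed to at most 2.15 and germ cell markers to at most 0.817 on any array. The erythroid sums were below those of SOL at DR1, DR4 and DR6, and the macrophage sums at all 4 polluted sites. Most of the macrophage sum was Marco, with a mean signal of 78.5 at SOL and 51.5 at PS. The median change of the 5 macrophage markers at PS was −0.03, and none of them was called there. Hspa8 and Hsp90ab1 lay below SOL at DR1 and DR4 and overlapped with SOL at PS and DR6. The markers' part in the members' values was not tested.

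**Figure D4:**
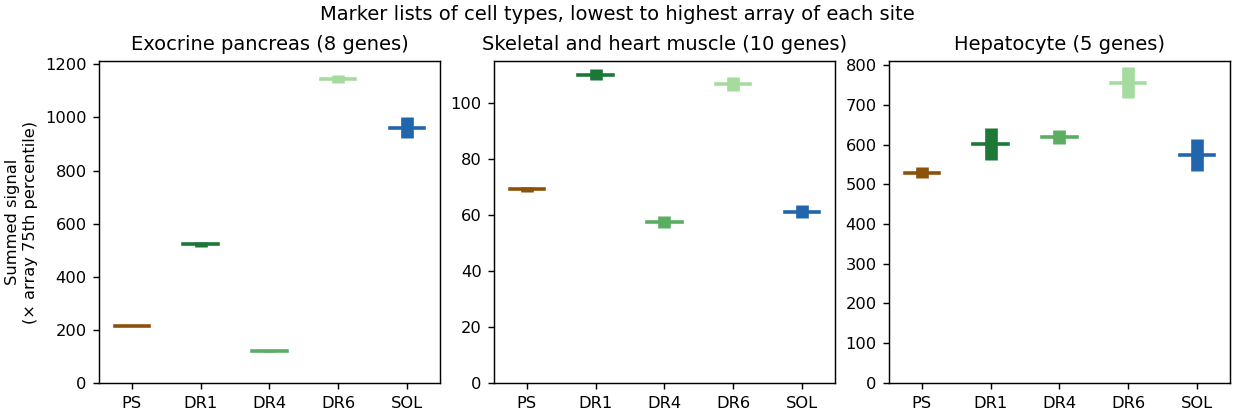
Summed signal in multiples of the array's 75th percentile (vertical axis, linear from 0) of 3 marker lists at the 5 sites (horizontal axis); bars run from the lowest to the highest array with a value for every marker (for pancreas 3 at DR1 and 3 at DR4, for muscle 2 at DR1), with a line at their midpoint. Exocrine pancreas markers reach 1160 at DR6 and at most 122 at DR4, and muscle markers start at 108 at DR1 and 104 at DR6, above every array of PS, DR4 and SOL.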

How the data were processed

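Per the file headers, the deposited scanner files hold the linear intensity of each spot, with the background taken off; the submitters' processing notes name Feature Extraction 9.5.3.1, and no scaling between arrays is recorded. The authors' table of the series is the same intensity rounded (largest difference 0.497%). Of 43379 gene spots on 19 arrays, 52.0% to 61.5% were well above background, and the 75th percentile of the intensity ran from 99.5 to 285. The number of arrays limits how precisely each pool was measured. With a single pool and slide per site, it does not bear on the spread between mice. The deposited intensity was put on the log2 scale, the array's 75th percentile subtracted, outlier spots set missing, probes filtered (well above background on 3 or more arrays of a site) and each gene given its brightest probe. Site means were estimated from the 19 arrays in limma 3.58.1 (R 4.3.3), two-sided, with Benjamini-Hochberg adjustment over all genes in each of 10 comparisons. Genes were named from the newer design file (5.84% of gene spots differ in the DR1 files). The members, lists and named genes (markers, fixed members, and the largest called changes per comparison) were chosen with earlier results of these data known. Members outside that rule were named after their values were seen. Tests were checked on simulated data with independent noise of the size seen within sites and changes past the 2-fold limit at DR1. That simulation held no slide effect, no spread between mice and no array standing apart, so it does not cover these limits. Alternatives covered scaling, background, filter, probe choice, outlier flags, source table, arrays fitted, replicate block and each array left out.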

Additional observations from a re-analysis of the deposited data

Results flagged for a closer look

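In 8 groups of 4 arrays a single array lay far from the other 3, where chance alone flags about 1 in 20 groups. Of 104 groups all were looked at but that of Hspa5 at DR1, which had 3 values. SOL replicate 1 gave 3 of them: Hspbap1 at 0.499 (others 1.83 to 1.99), Dnajb9 at 1.59 (others 7.13 to 7.84) and Hspa8 at 225 (others 173 to 178). DR1 replicate 4 gave Hspbap1 at 1.52 (others 2.39 to 2.6) and Dnajb9 at 3.79 (others 7.37 to 7.64). DR1 replicate 2 gave Hsp90ab1 at 61.3 (others 46.2 to 48.3) and Hspb8 at 28.7 (others 21.6 to 22). PS replicate 3 gave Dnajb11 at 31.1 (others 33.6 to 33.9). The first 3 arrays named are those on which the most genes of the whole array lay over 2-fold from the rest of their site. The causes were not tested.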

How the results depend on the processing

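Of 328 counts of called members recomputed under the alternatives 306 stayed within 1.5 times. Of 7796 values of named members 7717 kept their side of the limits, 66 lost a call, 12 gained a call and 1 reversed. Most of the 7796 belonged to genes and comparisons not called in the main fit, which had no call to lose. Dnajb5 lost its call in 11 of 30 alternatives in DR6 over SOL and in 9 in DR4 over SOL. Dnajb9 lost its call in DR4 over SOL in 10, while Hspb1 kept its calls in PS and DR6 over SOL in all 30. Under median scaling the counts were 2 in DR6 over SOL, 0 in PS over DR1 and 2 in PS over DR6, and under quantile scaling 2 in DR6 over SOL and 0 in PS over DR1. Median scaling moved the median of all genes in PS over DR6 to 0.18, against 0.01. Normexp background correction, which called fewer genes of all kinds (153 against 724 in PS over SOL), gave 0 members in DR1, 3 in DR4 and 2 in DR6 over SOL, 1 in DR1 and 1 in DR4 over DR6, 0 in DR1 over DR4, 0 in PS over DR1, 1 in PS over DR4 and 0 in PS over DR6. The 3 in DR4 over SOL were Hspbap1, Hsp90aa1 and Hsp90ab1, of which only Hspbap1 was called there in the main fit. Hspb3 in PS over DR1 reversed to 0.02 under normexp, against −1.02. The mean of all kept probes gave 3 members in DR4 over SOL and 2 in PS over DR1. Leaving out 1 array at a time gave 1 to 1 members in PS, 2 to 3 in DR1, 4 to 7 in DR4 and 2 to 5 in DR6 over SOL, 3 to 3 in DR1 and 3 to 4 in DR4 over DR6, 1 to 2 in DR1 over DR4, 0 to 2 in PS over DR1, 3 to 3 in PS over DR4, 5 to 5 in PS over DR6 and 0 to 0 with pools as units. The count in DR6 over SOL was 2 without DR6 replicate 3, that in DR1 over DR4 2 without DR4 replicate 1, and that in PS over DR1 2 without PS replicate 1 and 0 without PS replicate 2, DR1 replicate 3 or DR1 replicate 4. Leaving out 3 arrays together was added after seeing the data and moved no count by over 1.5 times. It did change which members were called over SOL. At DR1 the 2 were then Hspa1b, lower, and Hspb3, higher. At DR4 4 were left, without Dnajb5 and Dnajb9, and at DR6 3, without Dnajb5. The cause of these shifts was not tested.

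The replicate numbers are shared between sites. Deviations of arrays with the same number correlated at −0.16 to 0.484, over 0.1 in 16 of 36 pairs. Those of arrays with other numbers, from different sites, correlated at −0.411 to 0.461. Whether the numbers pair the arrays was not tested. With the replicate number as a block the counts were 1 in PS, 2 in DR1, 6 in DR4 and 4 in DR6 over SOL, and no count moved by over 1.5 times.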
